A study of Homo sapiens with 6 samples.

Results

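Vascular growth factors, related secreted proteins and vascular receptors were followed through 10 genes, VEGFA, VEGFB, VEGFC, PGF, ESM1, ANGPTL4, STC1, STC2, TIE1 and ROBO4, among the 20683 gene symbols counted in a human fibrosarcoma cell line. They were chosen by gene symbol, with their values in the comparison of inhibitor and DMSO already known, so their differences between those groups are given as a description and not as tests. HT-1080 cells, an adherent line grown from a fibrosarcoma, were given the compound SLV-8472-01 for 4 h at a labelled dose of 5 mM, or 0.1% DMSO for 4 h. The series names the compound an inhibitor of IRAK4, a kinase that acts below the Toll-like and interleukin-1 receptors. The labels do not say whether this dose refers to the culture medium or to a stock solution. They give no DMSO content for the cultures with the compound. Each group had 3 libraries, described as biological replicates, all from 1 cell line. The question was which transcripts differ after a short exposure to the compound.

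The VEGF ligands are secreted dimers that bind receptor tyrosine kinases on endothelial cells. VEGFA is the main driver of vessel sprouting, VEGFC acts mostly on lymphatic vessels, and VEGFB and PGF bind the receptor FLT1. Tumour cells commonly secrete such factors, and VEGFA, STC2 and ANGPTL4 are known to be induced by low oxygen and by cell stress. TIE1 and ROBO4 are receptors best known from endothelial cells.

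Libraries were made by multiplex PCR of 1 part of each targeted transcript, so a count reports that part and not a whole mRNA, and fewer expressing cells cannot be told apart from less RNA per cell. Counts of different genes depend on how well each part amplifies, so levels are compared between groups and not between genes. Totals ran from 7644478 to 11427779 counts in the inhibitor libraries and from 12003104 to 15336351 in the DMSO libraries, so depth differed between the groups. Inhibitor replicate 3, the shallowest library, stood apart from the others on the second principal component (-23.6, against 13.2 and 9.97 for the other inhibitor libraries and -2.60 to 3.23 for the DMSO libraries; 16.8% of the variance). Values below are CPM, counts per 1000000 scaled with the TMM factors of edgeR, and changes are log2 fold changes of inhibitor minus DMSO from a fit over 11391 genes. As checks of the cell type, all 16 mesenchymal markers had counts, though THY1 had at most 1 and NT5E at most 7 in any library. The summed level of the 16 was 9281 to 11227 CPM in the inhibitor libraries and 8400 to 9406 CPM in the DMSO libraries. Of the 14 of them tested, 6 passed the test as higher and 0 as lower (edgeR, 42.9% called, beside 20.2% of all genes tested; median log2 fold change 0.13; 0 lower also at an unadjusted p under 0.05). They were led by SNAI2 (0.95), CD44 (0.53), FN1 (0.49) and COL6A2 (0.47), and COL6A2 lost its call without inhibitor replicate 1 (adjusted p = 0.0524). The part of this shift in the results below was not tested. Of 14 epithelial markers, CDH1, GRHL2 and OVOL1 had no count. Of the 3 tested, 0 passed (0 also at an unadjusted p under 0.05, median log2 fold change -0.135, with CLDN4 at -0.56 and KRT18 at -0.13). The summed level of the 14 was 238 to 289 CPM in the inhibitor libraries and 254 to 278 CPM in the DMSO libraries. Most of it came from KRT8 and KRT18. KRT8 averaged 170 CPM with the inhibitor and 156 CPM with DMSO, and KRT18 averaged 97.1 CPM and 107 CPM.

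Of the 10 genes, 9 passed the filter on low counts and ANGPTL4 did not. In edgeR's quasi-likelihood test at an adjusted p under 0.05, 6 of the 9 were called higher with the inhibitor (VEGFA, ESM1, STC1, STC2, TIE1 and ROBO4), 0 were called lower and 3 were not called (VEGFB, VEGFC and PGF). Over all genes tested, 20.2% were called, 9.92% higher and 10.3% lower (1130 and 1168 genes, or 831 higher and 1714 lower with scaling by library totals alone). Since the comparison was known when the genes were chosen, nothing is read from the excess. The inhibitor and DMSO libraries did not overlap for 7 of the 9, 6 of them higher with the inhibitor and VEGFC lower, where 36.3% of all genes tested did not overlap. Together the 10 genes took 0.518%, 0.485% and 0.452% of the counts of the inhibitor libraries and 0.335%, 0.313% and 0.306% of those of the DMSO libraries. STC1 made up most of that share in every library. Without inhibitor replicate 3, which stood apart, the log2 fold change was 0.89 for VEGFA, 0.24 for VEGFB, -0.25 for VEGFC, 0.03 for PGF, 1.70 for ESM1, 0.63 for STC1, 1.14 for STC2, 0.40 for TIE1 and 0.70 for ROBO4, and the same 6 genes were called.

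**Figure D1:**
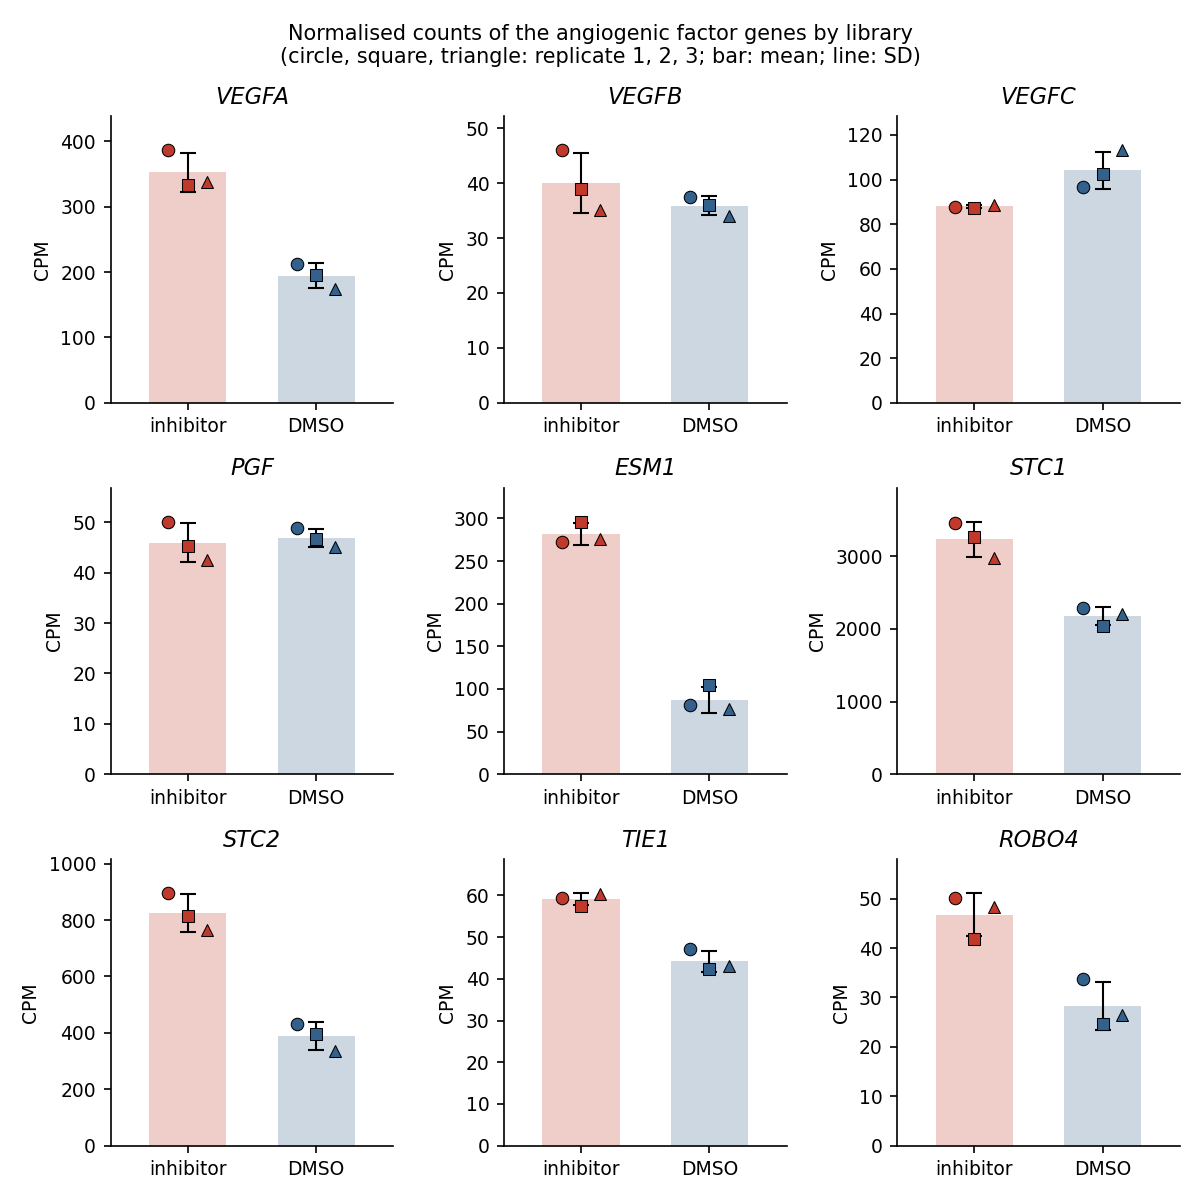
Normalised counts (CPM, vertical axes from 0) of the 9 tested genes in the inhibitor (left) and DMSO (right) libraries. Points are the 3 libraries of a group, bars the mean and lines the SD. VEGFA, ESM1, STC1, STC2, TIE1 and ROBO4 lie higher in every inhibitor library than in any DMSO library, VEGFC lies lower, and VEGFB and PGF overlap.

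Among the VEGF ligands the groups differed most for VEGFA. VEGFA was at 386, 334 and 338 CPM in the inhibitor libraries, against 213, 195 and 174 CPM in the DMSO libraries. Every inhibitor library lay above every DMSO library, with a wide gap between the groups. The mean was 353 ± 29.4 CPM with the inhibitor and 194 ± 19.2 CPM with DMSO (SD, n = 3 each), a log2 fold change of 0.86 ± 0.11 (SE), or 1.81-fold. Sorted from the highest log2 fold change down, VEGFA was at place 306 of the 11391 genes. In libraries thinned to the smallest total its log2 fold change was 0.83.

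VEGFC, the lymphatic ligand, went the other way. It was at 87.9, 87.2 and 88.8 CPM in the inhibitor libraries, against 96.6, 103 and 113 CPM in the DMSO libraries. The inhibitor libraries lay within 2 CPM of each other and below all DMSO libraries, which spread more widely. The log2 fold change was -0.24 ± 0.10 (SE), and it was called lower in 1 of 16 alternative settings, the scaling by library totals alone (-0.31). VEGFB and PGF did not separate the groups. VEGFB was at 46.0, 38.9 and 35.1 CPM in the inhibitor libraries and 37.6, 36.0 and 34.1 CPM in the DMSO libraries (log2 fold change 0.16 ± 0.12, SE). PGF was at 50.1, 45.3 and 42.5 CPM in the inhibitor libraries and 48.8, 46.6 and 45.1 CPM in the DMSO libraries (log2 fold change -0.02 ± 0.11, SE). Inhibitor replicate 1 was the highest of the 6 libraries for both genes. The fitted change of PGF had the opposite sign in 2 of 16 settings.

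Ratios of counts within a library need no scaling between libraries, and here they restate the differences of the ligands above. The ratio of VEGFA to VEGFC counts was 4.398, 3.83 and 3.80 in the inhibitor libraries, against 2.20, 1.91 and 1.54 in the DMSO libraries. It was 2.15 times as high with the inhibitor, by geometric means. The ratio of VEGFA to PGF was 7.71, 7.38 and 7.95 in the inhibitor libraries and 4.37, 4.19 and 3.87 in the DMSO libraries. The ratio of VEGFA to VEGFB was 8.86 ± 0.657 with the inhibitor and 5.40 ± 0.275 with DMSO (SD, n = 3 each). None of these 3 ratios overlapped between groups, but VEGFA, which is in all 3, did not overlap by itself either. The genes of these and the later ratios were chosen with their values known, so nothing is read from the separation. VEGFD, the remaining ligand of the lymphatic receptor, had 1 count in all 6 libraries together.

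**Figure D2:**
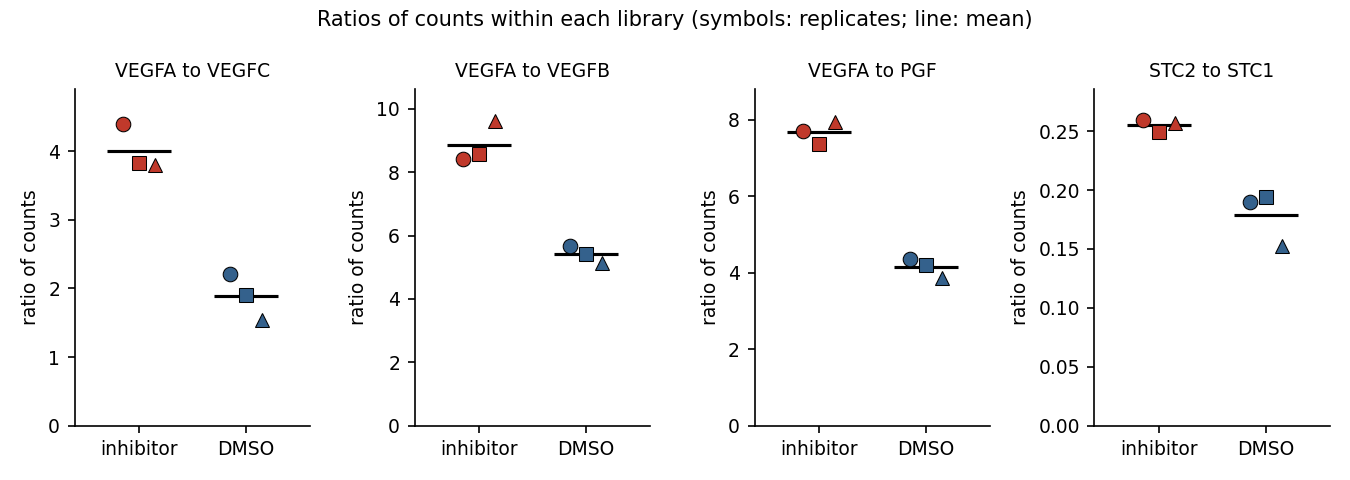
Ratios of raw counts of 2 genes within each library (vertical axes from 0), inhibitor left and DMSO right. Symbols are the 3 libraries of a group and lines their mean. The ratios of VEGFA to VEGFC, VEGFB and PGF and that of STC2 to STC1 are higher in every inhibitor library than in any DMSO library.

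ESM1, which encodes the secreted proteoglycan endocan, differed more between the groups than any other of the 9 genes. ESM1 had 3034, 2724 and 2061 counts in the inhibitor libraries and 1271, 1626 and 914 in the deeper DMSO libraries. These were 272, 296 and 276 CPM in the inhibitor libraries, against 80.9, 105 and 76.0 CPM in the DMSO libraries. The inhibitor libraries lay close together, and DMSO replicate 2 stood above the other DMSO libraries. The log2 fold change was 1.69 ± 0.12 (SE), or 3.22-fold, place 42 of 11391 from the top. The relative spread of ESM1 (SD over mean) was 4.61% with the inhibitor and 17.8% with DMSO. The ratio of ESM1 to VEGFA counts was also higher in every inhibitor library, at 0.704, 0.888 and 0.818, against 0.380, 0.537 and 0.435 in the DMSO libraries.

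ANGPTL4, a secreted inhibitor of lipoprotein lipase, had 0 counts in all 6 libraries. With a floor of 3 counts per library, this allows up to 0.269, 0.326 and 0.402 CPM in the inhibitor libraries and up to 0.191, 0.194 and 0.249 CPM in the DMSO libraries, for counting error only. Little mRNA and poor amplification of the targeted part cannot be told apart here. ANGPTL4 is a target of the lipid-sensing PPAR receptors, and of 22 other such targets 3 had no count in any library and 15 passed the low-count filter.

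The stanniocalcins are secreted glycoproteins, and in human both are known to inhibit the protease PAPPA. STC1 was at 3456, 3267 and 2977 CPM in the inhibitor libraries, against 2279.6, 2045 and 2208 CPM in the DMSO libraries. STC2 was at 896, 814 and 765 CPM in the inhibitor libraries, against 433, 396 and 337 CPM in the DMSO libraries. All inhibitor libraries lay above all DMSO libraries for both. The log2 fold change was 1.09 ± 0.11 (SE) for STC2, or 2.12-fold, and 0.57 ± 0.10 (SE) for STC1, or 1.49-fold. STC2 stood at place 163 and STC1 at place 745 of 11391 from the top. The ratio of STC2 to STC1 counts was 0.259, 0.249 and 0.257 in the inhibitor libraries and 0.190, 0.194 and 0.153 in the DMSO libraries, with no overlap.

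TIE1, an orphan receptor tyrosine kinase that acts with the angiopoietin receptor TEK, was at 59.4, 57.5 and 60.4 CPM in the inhibitor libraries, against 47.1, 42.4 and 43.1 CPM in the DMSO libraries. ROBO4, a receptor of the roundabout family that stabilises vessels, was at 50.1, 41.8 and 48.4 CPM in the inhibitor libraries, against 33.7, 24.5 and 26.5 CPM in the DMSO libraries. Both genes were higher in every inhibitor library than in any DMSO library. The log2 fold change was 0.72 ± 0.13 (SE) for ROBO4 and 0.42 ± 0.11 (SE) for TIE1. TIE1 had the smallest change of the 6 genes called, and the call was lost without DMSO replicate 2 (log2 fold change 0.38) and in the test against a fold of 1.2.

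Both receptor genes are usually read as endothelial, so the other endothelial markers were set beside them. Of 20 such markers, 7 had no count in any library (CLDN5, EMCN, ERG, CD34, PLVAP, MMRN1 and LYVE1), 3 passed the low-count filter (TEK, ENG and EGFL7) and 0 of these were called (edgeR; 0 also at an unadjusted p under 0.05). Among them TEK was higher in every inhibitor library, at 2.33, 2.94 and 2.14 CPM, against 2.10, 1.29 and 1.83 CPM in the DMSO libraries (edgeR adjusted p = 0.236). With TIE1 and ROBO4 the list has 5 tested genes, of which those 2 were called (40%, beside 20.2% of all genes; median log2 fold change 0.42, the value of TIE1). TIE1 and ROBO4 were chosen with their values known, so nothing is read from this share or median. The summed level of the 20 ran from 252 to 348 CPM in the inhibitor libraries and from 248 to 314 CPM in the DMSO libraries. ENG, a TGF-beta coreceptor also made by mesenchymal cells, held 234 to 330 CPM of that with the inhibitor and 232 to 298 CPM with DMSO. PECAM1 had 8, 6 and 5 counts in the inhibitor libraries and 6, 9 and 10 in the DMSO libraries. CDH5 had 1, 0 and 0 counts in the inhibitor libraries and 2, 3 and 1 in the DMSO libraries. PECAM1 and CDH5 were thus at or near 0. The same libraries held 451 to 662 counts of TIE1 in the inhibitor group and 519 to 740 in the DMSO group. EGFL7, another marker of the list, was not near 0. It was at 13.1, 11.6 and 13.5 CPM in the inhibitor libraries and 11.8, 11.9 and 12.6 CPM in the DMSO libraries.

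**Figure D3:**
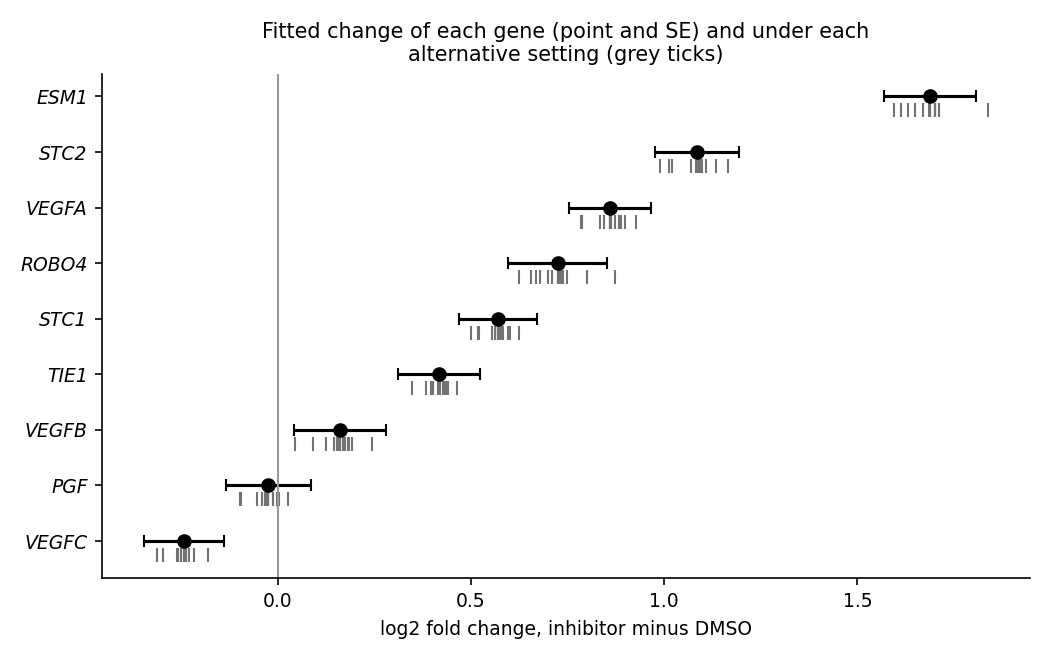
Fitted log2 fold change of inhibitor minus DMSO (horizontal axis) for the 9 tested genes. Points are the fit of all 6 libraries with their SE, and grey ticks the values under 16 alternative settings, 6 of which leave out 1 library. ESM1 lies highest at 1.69 and VEGFC lowest at -0.24.

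Promoter windows from RefSeq (GRCh38.p14, 250 bases before to 50 after the gene start) were matched for 8 of the 10 genes, all but VEGFA and STC1. They were searched on both strands for the core letters of the element bound by hypoxia-inducible factors (HIF), ACGTG or GCGTG. At least 1 match was found in 6 of the 8 genes, where 48.4% of all 35116 windows hold one, so the letters are common. TIE1 and ROBO4 had none. The ATF4 and C/EBP letters TGATGNAA (in 3.62% of all windows), the AP-1 letters TGANTCA (7.71%) and the cAMP element TGACGTCA (1.85%) were in none of the 8. A match is a run of letters and not a shown binding site. The windows of ESM1 and STC2 are printed because these genes had the largest differences between the groups and more than 1 match each. Capitals mark the matches, and CACGC is GCGTG on the other strand.

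ESM1 (GRCh38.p14, chr5:54985544-54985843, minus strand): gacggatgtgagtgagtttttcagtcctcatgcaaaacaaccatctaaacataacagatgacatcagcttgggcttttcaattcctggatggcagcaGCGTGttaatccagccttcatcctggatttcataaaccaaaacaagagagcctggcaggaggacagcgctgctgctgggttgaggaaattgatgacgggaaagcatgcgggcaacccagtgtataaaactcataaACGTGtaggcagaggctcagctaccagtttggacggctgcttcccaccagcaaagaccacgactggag

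STC2 (GRCh38.p14, chr5:173328365-173328664, minus strand): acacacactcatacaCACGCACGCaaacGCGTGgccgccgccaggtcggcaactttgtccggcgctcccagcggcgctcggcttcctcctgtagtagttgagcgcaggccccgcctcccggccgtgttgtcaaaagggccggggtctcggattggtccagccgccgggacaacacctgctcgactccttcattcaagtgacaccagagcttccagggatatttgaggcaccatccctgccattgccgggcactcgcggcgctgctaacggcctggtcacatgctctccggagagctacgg

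In the ESM1 window the matches start 153 and 18 bases before the gene start, and the window holds 49.3% G and C. In the STC2 window the 3 matches start 235, 231 and 222 bases before the gene start, the first pair sharing 1 base, and the window holds 64% G and C.

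The genes around these proteins were compared in the same test, and here the rises and falls are those at an adjusted p under 0.05. The lists were written with earlier results of these data known. Of 27 receptors, ligands and targets of the 10 proteins, 15 were tested, and 4 rose and 0 fell (26.7%, beside 20.2% of all genes; median log2 fold change 0.35, beside 0.003 over all genes). DESeq2 and voom each called 3 higher and 0 lower, and 0 were lower at an unadjusted p under 0.05. PAPPA2 and PAPPA, the proteases that stanniocalcins restrain, both rose. PAPPA2 averaged 21.3 ± 1.68 CPM in the inhibitor libraries and 10.4 ± 1.23 CPM in the DMSO libraries (SD, n = 3 each; log2 fold change 1.04 ± 0.14, SE, edgeR adjusted p = 2.01e-05). PAPPA averaged 97.1 ± 6.72 CPM in the inhibitor libraries and 74.1 ± 4.45 CPM in the DMSO libraries (0.39 ± 0.10, adjusted p = 0.0108). UNC5B, a netrin receptor that ROBO4 binds, rose by 0.69 ± 0.17 (adjusted p = 0.00625), and the endothelial lipase gene LIPG by 0.38 ± 0.14 (adjusted p = 0.0483). Leaving out inhibitor replicate 1 left 2 of the 4 calls, and leaving out DMSO replicate 2 left 1. The PAPPA call was lost without DMSO replicate 2 (adjusted p = 0.071), that of UNC5B without that library (0.0527) or inhibitor replicate 1 (0.0904), and that of LIPG without any library other than DMSO replicate 1 (0.0645 to 0.191). LIPG was also not called by DESeq2 (0.0675), by voom (0.0511) or with library totals (0.106).

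The receptors for the ligands themselves were barely counted. FLT1 and FLT4 had at most 5 counts in any library, KDR had 5, 6 and 3 counts in the inhibitor libraries and 7, 10 and 6 in the DMSO libraries, and the angiopoietin receptor gene TEK averaged under 3 CPM in both groups. The neuropilins, which bind VEGF ligands as coreceptors, were well counted. NRP1 averaged 1247 ± 55.8 CPM in the inhibitor libraries and 1040.1 ± 94.7 CPM in the DMSO libraries (SD, n = 3 each). NRP2 averaged 540.5 ± 32.3 CPM in the inhibitor libraries and 448 ± 56.5 CPM in the DMSO libraries. Their groups did not overlap, but neither gene was called (edgeR adjusted p = 0.0719 for NRP1 and 0.0774 for NRP2). NRP1 was called under upper-quartile scaling (adjusted p = 0.0464). The neuropilins are named after their values were seen.

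Of 35 other factors that promote vessel growth, 19 were tested, and 4 rose and 0 fell (median log2 fold change 0.12). The share called in either direction, 21.1%, is near the 20.2% of all genes. By direction, 9.92% of all genes were called higher and 10.3% lower. DESeq2 and voom each called 4 higher and 0 lower, and 1 was lower at an unadjusted p under 0.05. The Notch ligand gene JAG1 averaged 327 ± 17.9 CPM in the inhibitor libraries and 142 ± 9.71 CPM in the DMSO libraries (log2 fold change 1.203 ± 0.10, SE, edgeR adjusted p = 1.82e-08). The matricellular genes CTGF (0.56 ± 0.10, adjusted p = 4.85e-04) and CYR61 (0.43 ± 0.10, adjusted p = 0.00463) and the growth factor gene FGF2 (0.50 ± 0.12, adjusted p = 0.00673) rose too. The CYR61 call was lost without DMSO replicate 2 (adjusted p = 0.0518), and 7 factors rose without inhibitor replicate 3, the library that stood apart. The peptide hormone gene ADM, a common hypoxia-induced angiogenic factor, had 2 counts in all.

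Proteins and fragments that restrain vessel growth made up a further list. Of its 26 genes, 17 were tested, and 5 rose and 1 fell (35.3%, beside 20.2% of all genes; median log2 fold change 0.21). SEMA3C rose by 0.50 ± 0.12 (SE, edgeR adjusted p = 0.00559), and the basement membrane collagen genes COL18A1 and COL4A2 by 0.42 ± 0.14 (adjusted p = 0.0426) and 0.39 ± 0.10 (adjusted p = 0.00809). COL4A1 (0.31 ± 0.11, adjusted p = 0.0441) and SPARC (0.33 ± 0.10, adjusted p = 0.0221) also rose and are named after their values were seen. SPARC is also among the mesenchymal markers above. The counts report 1 part of the mRNA of each collagen chain, so release of a restraining fragment from the protein was not measured. ISM1, which encodes isthmin, averaged 3.80 ± 0.640 CPM in the inhibitor libraries and 5.83 ± 0.712 CPM in the DMSO libraries (SD, n = 3 each), a fall of -0.59 ± 0.21 on the log2 scale (adjusted p = 0.0478). THBS1, which encodes thrombospondin, averaged 1400.3 ± 103 CPM in the inhibitor libraries and 1391 ± 193 CPM in the DMSO libraries, and is also named after its value was seen. Leaving out inhibitor replicate 2 left 1 gene that rose, and leaving out inhibitor replicate 1, DMSO replicate 1 or DMSO replicate 2 left 2. Without any one of these 4 libraries, COL18A1 (adjusted p 0.0866 to 0.157) and COL4A1 (0.0525 to 0.206) were not called. SPARC kept its call only without inhibitor replicate 3 (0.0584 to 0.0934 in the other 5 cases), and SEMA3C lost it without inhibitor replicate 2 (0.057). DESeq2 called 4 higher, without COL18A1 (0.0664), and ISM1 was called neither by DESeq2 (0.0965) nor by voom (0.0656). ISM1 kept its call only without replicate 1 of either group (0.11 to 0.162 in the other 4 cases).

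**Figure D4:**
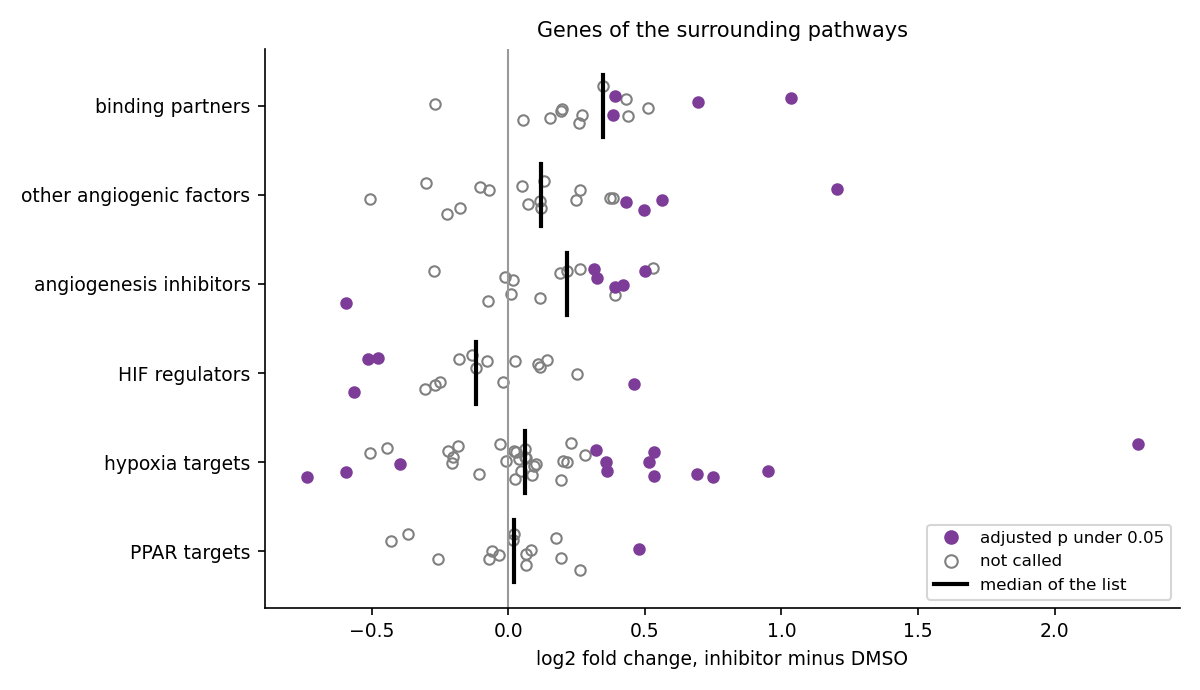
Log2 fold change of inhibitor minus DMSO (horizontal axis) of every tested gene in 6 lists around the 10 genes. Filled points passed an adjusted p under 0.05, open points did not, vertical position within a list is arbitrary, and black lines are list medians. The median of the receptors and other binding partners is highest at 0.35 and that of the HIF regulators lowest at -0.12.

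HIF is held down in oxygen by prolyl hydroxylases, and its targets include several of the genes above. Of 22 genes for HIF subunits and regulators, 17 were tested, and 1 rose and 3 fell, a share called of 23.5% that is near the 20.2% of all genes (median log2 fold change -0.12). EGLN1 and EGLN2, 2 of the prolyl hydroxylases, fell. EGLN1 averaged 29.4 ± 1.67 CPM in the inhibitor libraries and 42.0 ± 4.45 CPM in the DMSO libraries (SD, n = 3 each; log2 fold change -0.51 ± 0.12, SE, edgeR adjusted p = 0.00358). EGLN2 fell by 0.48 on the log2 scale (adjusted p = 0.0114), a call lost without inhibitor replicate 2 (0.0683) or DMSO replicate 2 (0.113). The coactivator gene EP300 fell by 0.56 on the log2 scale (adjusted p = 0.00146). OS9, a lectin of protein quality control, rose by 0.46 ± 0.12 (adjusted p = 0.00985), a call lost without DMSO replicate 2 (0.0559) or DMSO replicate 3 (0.0766). HIF1A, which encodes the regulated subunit, was not called (log2 fold change 0.11 ± 0.10, adjusted p = 0.485). It is named after its value was seen.

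Hypoxia-induced genes other than the 10 were tested as 38 of 44, and 10 rose and 3 fell (34.2%, beside 20.2% of all genes; median log2 fold change 0.06). DDIT4 (2.31 ± 0.13, SE, edgeR adjusted p = 1.74e-11), BHLHE40 (0.95 ± 0.11, adjusted p = 2.03e-06) and INSIG2 (0.75 ± 0.17, adjusted p = 0.00373) had the largest rises. DDIT4 encodes an inhibitor of mTORC1 and is also induced through ATF4. The glucose transporter genes SLC2A1 (0.53 ± 0.11, adjusted p = 0.00185) and SLC2A3 (0.54 ± 0.10, adjusted p = 8.38e-04) rose and are named after their values were seen. The genes that fell were ALDOA (-0.74 ± 0.21, adjusted p = 0.0165), and, outside the naming rule, PFKFB4 (-0.59 ± 0.19, adjusted p = 0.0333) and AK4 (-0.39 ± 0.11, adjusted p = 0.0129). None of the 3 was called without inhibitor replicate 1 (adjusted p 0.054 to 0.106) or without DMSO replicate 2 (0.0527 to 0.117). PFKFB4 kept its call only without inhibitor replicate 3 and was not called by DESeq2 (0.078), and ALDOA also lost it without inhibitor replicate 2 (0.052). Both genes had low counts. ALDOA averaged 3.15 CPM in the inhibitor libraries and 5.24 CPM in the DMSO libraries, and PFKFB4 averaged 4.18 CPM and 6.26 CPM. For these genes too, little mRNA and poor amplification of the targeted part cannot be told apart. CA9, a standard marker of HIF activity, averaged 33.5 ± 6.42 CPM in the inhibitor libraries and 28.7 ± 3.27 CPM in the DMSO libraries (edgeR adjusted p = 0.247), and is named after its value was seen. Of the 15 tested PPAR target genes, 1 rose and 0 fell, also in DESeq2 and in voom, and 1 was lower at an unadjusted p under 0.05 (6.67%, beside 20.2% of all genes; median log2 fold change 0.02). The gene that rose was CPT2, a mitochondrial fatty acid enzyme (0.48 ± 0.13, adjusted p = 0.0135), and its call was lost without inhibitor replicate 2 (0.0684) or DMSO replicate 2 (0.0775).

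STC1 and STC2 had the highest normalised counts of the 10 genes, and the genes with the most similar pattern over the 6 libraries were sought for them among the 9236 genes averaging 5 CPM or more. Among the highest Pearson correlations of log2 CPM with STC2 were those of PVR (0.9995) and CARS (0.997). PVR, which encodes the poliovirus receptor, averaged 441 ± 28.7 CPM in the inhibitor libraries and 234 ± 24.8 CPM in the DMSO libraries (SD, n = 3 each). The highest with STC1 were those of GRAMD1B (0.997), MOSPD2 (0.995) and GTPBP10 (0.995). The 6 libraries fall in 2 groups, so any gene that differs between them correlates, and 278 genes reached 0.95 with STC2 and 228 with STC1.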

How the data were processed

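RNA of 6 HT-1080 cultures was amplified with the Ion AmpliSeq Transcriptome panel and read on the Ion Proton, as the labels' protocols state. The authors deposited raw read counts per gene symbol, 1 table per library, without normalization. The submitters' processing notes list HTSeq, DESeq2 1.20.0 and the build hg19 without roles. For the aligner, annotation and strand setting, nothing is given in the sources used here, so reads of VEGFC, PGF and ROBO4 could be mixed with the 1 gene each that overlaps them in RefSeq (GRCh38.p14). The files give no positions. Groups came from the sample titles.

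Of 20683 symbols, 11391 passed edgeR's low-count filter. Inhibitor minus DMSO was fitted in R 4.3.3 with edgeR 4.0.16 (TMM, glmQLFit, glmQLFTest, no covariate, Benjamini-Hochberg over all tested genes, calls at an adjusted p under 0.05). SE is the log2 fold change over the square root of F. The procedure was tested on simulated counts. Libraries of a group differed beyond sampling noise (9.32 to 14.7 as chi-square over its degrees of freedom) and were counted as separate replicates. P-values set the difference between the groups against the spread between libraries of a group. The genes and lists were chosen with earlier results of these data known. Named are the 10 genes, up to 4 called genes of each list that changed most (where none was called, the 2 of smallest p), and 3 similar genes for each of the 2 genes with the highest CPM. Other genes, among them receptors, cell markers and genes with few or no counts, were added once values had been seen, and 1 gene that the rule names is not reported here. Alternatives were DESeq2 size factors, library totals, upper-quartile scaling, omitting the count filter, requiring a mean of 10 CPM, a block for the replicate number, DESeq2 1.42.0, voom in limma 3.58.1, a test against a fold of 1.2, thinned libraries, and each library left out.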

Additional observations from a re-analysis of the deposited data

How the results depend on the processing

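Same-numbered libraries did not deviate together (correlations 0.0317, -0.0166 and 0.00693), so the numbers do not pair them. The fitted change of each tested gene of the 10 stayed within 1 SD of its libraries in all 16 settings, except TIE1 with library totals (0.35, against 0.42). With a replicate block 2223 genes changed, 3 angiogenesis inhibitor genes rose and 0 fell. Library totals shifted the median of all genes to -0.07 and called 831 genes higher and 1714 lower. Under them 2 angiogenesis inhibitor genes rose, and 1 other angiogenic factor and 5 HIF regulators fell. In the test against a fold of 1.2, 829 genes changed (449 higher, 380 lower). In it 2 binding partners, 2 other angiogenic factors, 0 angiogenesis inhibitor genes, 0 HIF regulators and 0 PPAR targets rose, and 0 angiogenesis inhibitor genes, 1 HIF regulator and 0 hypoxia targets fell. No angiogenesis inhibitor gene (0) fell with upper-quartile scaling, with DESeq2, with voom or in thinned libraries, where 3 rose. With a minimum of 10 CPM, 0 angiogenesis inhibitor genes and 1 hypoxia target fell, since ISM1, ALDOA and PFKFB4 lie under that minimum and were not tested. Leaving out 1 library gave 1405 to 2246 genes changed, 684 to 1133 higher and 721 to 1113 lower. Of the lists, 1 to 4 binding partners, 3 to 7 other factors, 1 to 5 angiogenesis inhibitor genes, 0 to 1 HIF regulators and 0 to 1 PPAR targets then rose, and 0 to 1 angiogenesis inhibitor genes and 0 to 3 hypoxia targets fell. Each such fit of 2 against 3 libraries shares 1 estimate of spread. The cause of the other shifts was not tested. Genes under about 0.4 CPM are beyond this depth.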
